A study of Xenopus laevis with 4 samples.

Results

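The 35 genes described here had 100 or more normalized counts in both control libraries and, in both sox8 CRISPR libraries, at most 1/8 of the lower control value. They were taken from 21531 genes measured in ventral tissue of Xenopus laevis gastrulae, after symbols that are only database numbers (LOC, XB, MGC) and the hox, fox, ventx, gata, bmp, szl, bambi, msx, sox, wnt, fzd, kremen, cdx, evx and id1 to id4 genes were set aside. A normalized count is the number of reads on a gene divided by a size factor that puts the libraries on a common scale. Of the 9062 genes that reached 100 in both controls, 75 (0.828%) met the rule before any symbol was set aside, of which 14 had only a database number and 26 belonged to the named families. Because these same values chose the genes, their low levels are a description and carry no test.

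RNA-seq libraries were prepared by Smart-seq2, a full-length cDNA method for small amounts of RNA, from ventral mesoderm explants at stage 11.5, when the blastopore is closing. The 2 control libraries came from embryos injected with mRNA of Cas7-11, a CRISPR effector that cuts RNA, without guides. The 2 sox8 CRISPR libraries came from embryos that received Cas7-11 mRNA together with guides against the 3′ UTR of sox8, a SoxE transcription factor gene, so both groups carried the nuclease and the experiment lowers RNA without changing the genome. The injections were made into the marginal region of the ventral blastomeres, and the labels number 1 embryo per library without saying whether tissue was pooled, so p-values measure the spread between these samples. No library received guides without a target.

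The ventral mesoderm of the gastrula lies under high BMP signalling, which acts through Smad proteins to switch on ventral transcription factors and, in the same cells, inhibitors that dampen the pathway. R-spondins, Hedgehog co-receptors and regulators of actin and junctions act in the same tissues to set Wnt and Hedgehog responses and the cell movements of gastrulation. X. laevis is allotetraploid, and many genes exist as a long (.L) and a short (.S) copy, called homeologs, that can be expressed at different levels.

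The guide sequences are shown because, by the labels, the guides are what the sox8 CRISPR embryos received beyond the controls. Each spacer is written 5′ to 3′ in lower case as the study's guide list gives it, and none of its bases is singled out.
G1: tattatggcattatagtccttca
G2: aaaatcctcagtttatcagcagg
G3: agaatcagaattgttggtctggt

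The targeted gene was measured first. Normalized counts of sox8.L were 508 (control replicate 1), 927 (control replicate 2), 26.9 (sox8 CRISPR replicate 1) and 25.4 (replicate 2), the pairs given from here on in that order. limma gave sox8.L a log2 fold change of −4.66 ± 0.97 (SE, n = 2 per group, adjusted p = 0.0436), past the threshold in 5 of the 13 fits tried, with adjusted p from 3.19e-06 to 0.997. The 13 fits include those with 1 library left out and not the one with crossed replicate numbers, a setting chosen after seeing the data. sox8.S had 14.1 and 43.7 in the controls versus 134 and 0 in the sox8 CRISPR libraries, so its groups overlapped.

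The libraries held 18189895 to 24108577 reads on genes, and 1 read was worth 0.625 to 1.56 normalized counts. sox8 CRISPR replicate 2 stood apart in having 3862 genes at 0, against 667 to 1290 in the others. Over all genes, limma on log2(normalized count + 1) called 41 genes lower (0.19%) and 31 higher (0.144%) at an adjusted p under 0.05 and a log2 fold change beyond 0.58. At an unadjusted limma p under 0.05 there were 1463 of the 21531 genes, 815 lower and 648 higher. Both sox8 CRISPR values lay below both controls for 19.1% of all genes and above both for 17%. The median over all genes was −0.16 on the log2 scale. In bulk tissue, fewer cells of a type and less RNA per cell cannot be told apart.

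**Figure D1:**
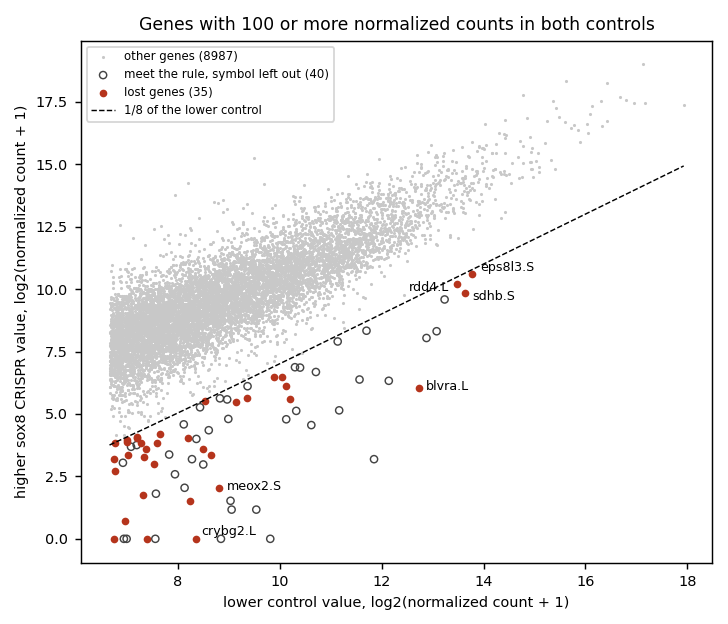
Each point is a gene with 100 or more normalized counts in both controls, placed by its lower control value (horizontal) and its higher sox8 CRISPR value (vertical), both as log2(normalized count + 1); the dashed line marks 1/8 of the lower control. The 35 lost genes (red) lie on or under the line by construction, together with 40 genes whose symbols were set aside (open circles), among 9062 genes in all.

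Of the 35 genes, 12 were among the 41 called lower by limma, and 23 were not called, a count read from the contrast that chose them. With any 1 of the 4 libraries left out limma called 0 genes in all, while 15 to 34 of the 35, and 298 to 3006 of all genes, were lower at an unadjusted p under 0.05. With all libraries edgeR called 16 of the 35 and DESeq2 33, beside 51 (0.237%) and 187 (0.869%) of all genes called lower and 58 (0.269%) and 239 (1.11%) called higher. edgeR did not call sdhb.S, rdd4.L and eps8l3.S, which limma called, and DESeq2 did not call zbed10.S and has3.S. The log2 fold changes of the 35 ran from −8.54 to −3.19 with a median of −5.33. The median gene kept 3.82% of its control mean in sox8 CRISPR replicate 1 and 0.864% in replicate 2, and none kept more than 9.99% and 11.5%. Replicate 2 held the lower value for 25 of the 35 (71.4%, against 46.3% of the 9062 genes that reached 100 in both controls). Of all 35 genes, replicate 2 was at 0 for 12 and replicate 1 for 4. The part of that library in these low values was not tested. With sox8 CRISPR replicate 1 left out the same rule would take 359 genes, and with replicate 2 left out 57.

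The 2 controls also differed from each other. The higher control was 1.098 to 13.2 times the lower one, with a median of 1.61 (1.70 over the 9062 genes), and 9 genes had controls more than 2-fold apart. The widest gap was that of anpep.S, with 126 and 1666 normalized counts. Genes just inside the line were has3.S, whose higher sox8 CRISPR value was 12.1% of its lower control, amotl1.L at 12.1% and anpep.S at 11.5%. The gene eps8l3.S at 11.1% and zbed10.S at 10.9% came next. Just outside the line at 12.5% were rspo2.L (12.6%), usf2.L (13.1%), kcnk6.S (13.4%), fgf3.L (13.9%) and adamtsl1.S (14.0%), so the edge of the group falls in a continuous run of genes.

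**Figure D2:**
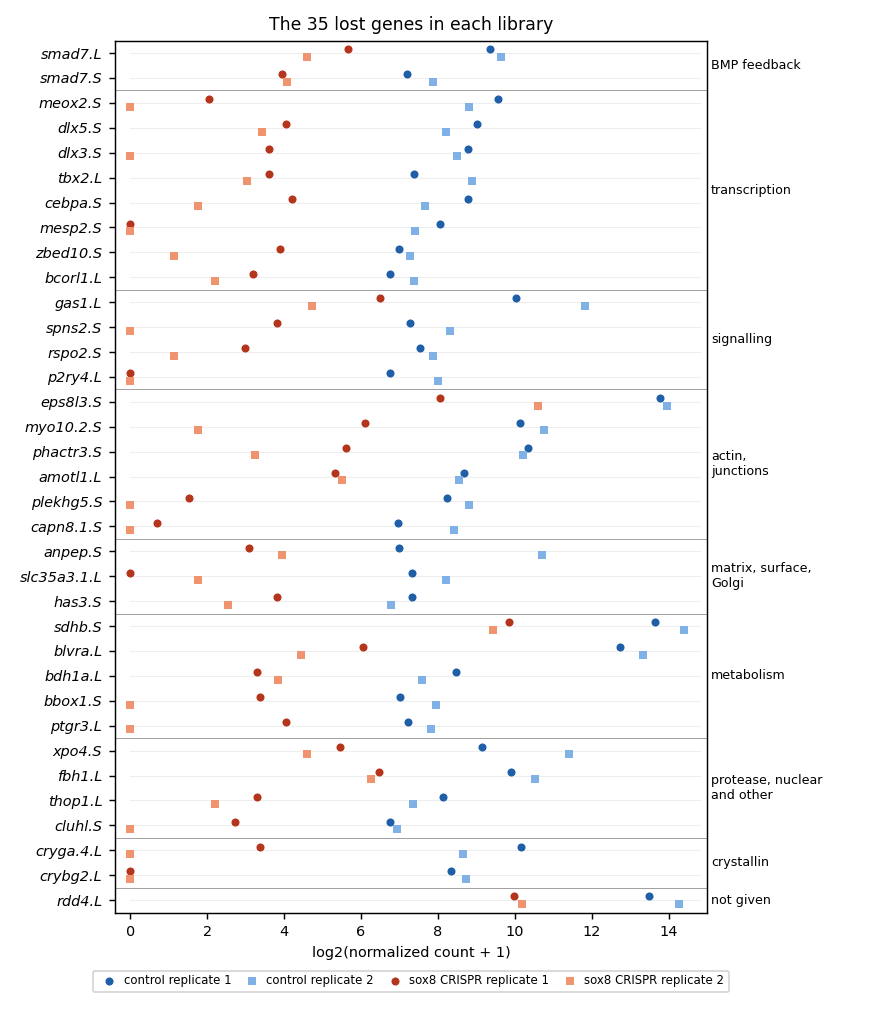
Normalized counts of each of the 35 lost genes in the 4 libraries on a log2(normalized count + 1) axis, grouped by the role of the product; blue marks are controls and red marks sox8 CRISPR, with circles for replicate 1 and squares for replicate 2. The sox8 CRISPR marks sit left of the controls for each gene by construction, and those at 0 on the axis had no read.

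The only homeolog pair with both copies among the 35 was smad7, which encodes an inhibitory Smad that BMP and TGF-β signals induce and that blocks their receptors. smad7.L had 654 and 795 normalized counts in the controls versus 49.3 and 22.96 in the sox8 CRISPR libraries. smad7.S had 145 and 234, and 14.4 and 15.7. The lower control was 13.3 times the higher sox8 CRISPR value for smad7.L and 9.24 times for smad7.S. Neither copy was called by limma, while edgeR called smad7.L and DESeq2 called both. Of the 14 other Smad genes limma called 0 (0 at an unadjusted p under 0.05, 0 by edgeR and 0 by DESeq2), and the second inhibitory Smad gene, smad6.L, had 49.97 and 162 in the controls versus 133 and 211 in sox8 CRISPR.

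Transcription regulators formed the largest class, with 8 genes. The classes were written after values were seen and after families were set aside by name, and their shares over all genes were not counted. meox2.S encodes a homeobox factor of the somitic mesoderm and sits at chr6S:29479613-29552390 of the v10.1 assembly. It had 750 and 448 normalized counts in the controls, 3.12 in sox8 CRISPR replicate 1 and 0 in replicate 2, a mean 384-fold lower, and limma called it. mesp2.S, a bHLH gene of the presomitic mesoderm in other vertebrates, had 262 and 168 in the controls versus no read in either sox8 CRISPR library. Against a floor of 3 reads in sox8 CRISPR replicate 2, where a read weighs more than in replicate 1, its control mean was at least 59.3-fold higher. The homeodomain genes dlx3.S and dlx5.S are known from the BMP-dependent non-neural ectoderm. dlx3.S had 439 and 360 in the controls versus 11.2 and 0 in sox8 CRISPR. dlx5.S had 520 and 293 against 15.6 and 9.67.

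The T-box repressor gene tbx2.L had 164 and 475 in the controls versus 11.2 and 7.25 in sox8 CRISPR, so that its groups were apart although the controls differed 2.89-fold. zbed10.S, named for its BED zinc finger, had 126 and 153 against 13.7 and 1.21. The remaining regulators were cebpa.S, a bZIP factor, and bcorl1.L, a corepressor of the BCOR family.

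Among the 4 genes of secreted and membrane signalling, gas1.L was the one called by limma. It encodes a membrane-anchored co-receptor for Hedgehog ligands, and it had 1048 and 3614 normalized counts in the controls versus 88.7 and 25.4 in sox8 CRISPR, a mean 40.9-fold lower. rspo2.S encodes R-spondin 2, a secreted protein that raises Wnt signalling and, in Xenopus, also lowers BMP receptor levels. It had 184 and 231 in the controls versus 6.87 and 1.21 in sox8 CRISPR. p2ry4.L, a nucleotide-sensing P2Y receptor gene, had 106 and 255 in the controls versus no read in sox8 CRISPR, at least 49.8-fold lower by the same floor. spns2.S encodes the exporter of sphingosine 1-phosphate, a lipid signal that guides cell migration, and it had 153 and 319 against 13.1 and 0.

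The 6 genes of actin and junction control included 3 called by limma. eps8l3.S, of the Eps8 family of actin regulators, had 14030 and 15880 in the controls, close to each other, and 262 and 1562 in sox8 CRISPR, which differed more. myo10.2.S encodes an unconventional myosin of filopodia and had 1117 and 1733 against 68.1 and 2.42. phactr3.S, whose product binds actin and protein phosphatase 1, had 1301 and 1183 against 47.5 and 8.46. The 3 others were not called by limma. plekhg5.S, a gene of apical constriction in Xenopus, had 301 and 448 in the controls, 1.87 (3 reads) in sox8 CRISPR replicate 1 and 0 in replicate 2. The ratio of its means was 400-fold, with a 95% exact Poisson interval from 137 to 1938 that covers counting error only. capn8.1.S, a calpain protease gene, had 123 and 339 in the controls versus 1 read in all in sox8 CRISPR, a ratio of 741 with an interval from 133 to 29263.5. amotl1.L encodes an angiomotin-like protein of tight junctions and Hippo signalling, and at 406 and 370 against 38.7 and 44.7 it was the gene with the smallest fold among the 35, a mean 9.30-fold lower.

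Genes for the cell surface and matrix were has3.S, anpep.S and slc35a3.1.L, none of them called by limma. has3.S encodes a hyaluronan synthase and had 159 and 108 in the controls versus 13.1 and 4.83 in sox8 CRISPR. anpep.S, an aminopeptidase of the cell surface, had 7.496 and 14.5 in sox8 CRISPR beside the uneven controls given above. slc35a3.1.L, a nucleotide sugar transporter gene of the Golgi, had 159 and 297 in the controls, 0 in replicate 1 and 2.42 (2 reads) in replicate 2, a ratio of 189 with an interval from 52.3 to 1560.

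Several of the lost genes have metabolic or housekeeping roles. sdhb.S, at chr7S:111951957-111958962, encodes the iron-sulfur subunit of succinate dehydrogenase, the enzyme shared by the citric acid cycle and the respiratory chain. It had 12695 and 21624 normalized counts in the controls versus 921 and 684 in sox8 CRISPR, a mean 21.4-fold lower. blvra.L encodes biliverdin reductase, which makes bilirubin from biliverdin, and it had 6774 and 10214 in the controls versus 65.0 and 20.5 in sox8 CRISPR. With 121 reads behind its sox8 CRISPR values, its mean was 199-fold lower. bdh1a.L of ketone body metabolism, bbox1.S of carnitine synthesis and ptgr3.L of the prostaglandin reductases made up the class. The 5 genes named by role alone (these 3, cebpa.S and bcorl1.L) had 106 to 436 in the controls and 0 to 17.5 in sox8 CRISPR.

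The other genes with intracellular roles were xpo4.S, fbh1.L, thop1.L and cluhl.S. xpo4.S, a nuclear transport receptor gene, had controls of 561 and 2705, a 4.82-fold spread, and 43.1 and 22.96 in sox8 CRISPR. fbh1.L encodes a DNA helicase with an F-box and had 946 and 1466 against 87.4 and 76.1, sox8 CRISPR values close to each other. thop1.L, an oligopeptidase gene, had 278 and 161 against 8.74 and 3.63. cluhl.S, related to the gene for the mitochondrial clustering protein CLUH, had 108 and 121 against 5.62 and 0.

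Both crystallin-domain genes were called by limma. crybg2.L, at chr2L:61393586-61450662, belongs to the βγ-crystallin family outside the lens and had 325 and 426 in the controls versus no read in sox8 CRISPR, at least 103.5-fold lower. cryga.4.L, named as a γ-crystallin, had 1135 and 402 in the controls, 9.37 in replicate 1 and 0 in replicate 2. rdd4.L, at chr7L:132328779-132352492, for which no role is given here, had 11459 and 19650 in the controls versus 1015 and 1166 in sox8 CRISPR, a mean 14.3-fold lower, and limma called it as well.

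The homeolog partners ask whether a loss extended to the other copy. A partner was measured for 22 of the 35 genes, and leaving out smad7, 20 partners lay outside the group. Copies were paired by symbol suffix alone. That includes myo10.2.L as the partner of myo10.2.S, although the annotation places myo10.2.S on chromosome 9_10L. How reads that match both copies were assigned is not stated, so reads of near-identical copies may have been divided between them. Of the 20 partners, 11 were below both controls in both sox8 CRISPR libraries (19.1% of all genes), 1 was above and 8 overlapped. Their median log2 fold change was −2.04, against −0.16 for all genes, with 16 negative and 4 positive values. limma called 1 of them lower and none higher. At an unadjusted limma p under 0.05, 6 were lower and 0 higher, beside 815 and 648 of all 21531 genes. edgeR called 1 lower and DESeq2 5 (0.237% and 0.869% of all genes), and neither called one higher. Partners that met the rule themselves would have entered the group, so those outside it are by choice the less reduced ones or those under the floor of 100.

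The partner called lower was rspo2.L. It had 2024 and 1385 normalized counts in the controls versus 73.1 and 174 in sox8 CRISPR, a log2 fold change of −3.88 ± 0.77 (SE, n = 2 per group, limma adjusted p = 0.0328). Both sox8 CRISPR values were below both controls, it passed the threshold in 7 of 13 fits, with adjusted p from 0.000193 to 0.997, and it was the gene nearest to the line on the outer side. Of the normalized counts of both copies in the controls, not corrected for length, 89.1% fell on rspo2.L, and the summed pair, which includes the copy chosen for its fall, was left at 6.67% of its control mean.

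Other partners were low without being called by limma, and DESeq2 called sdhb.L, meox2.L, capn8.1.L and tbx2.S besides rspo2.L. sdhb.L had 1593 and 2267 in the controls versus 142 and 347 in sox8 CRISPR (limma log2 fold change −3.09 ± 0.74, adjusted p = 0.107). Only 10.1% of the normalized counts of both copies in the controls fell on sdhb.L. The summed sdhb pair, left at 5.48%, therefore mostly follows sdhb.S, the copy chosen for its fall. meox2.L had 554 and 415 against 49.97 and 68.9. It held 44.7% of the counts of both copies in the controls, and the pair, which includes meox2.S, was left at 5.63%. gas1.S had 492 and 2149 against 289 and 239, where the lower control was only 1.70 times the higher sox8 CRISPR value. capn8.1.L had 1210 and 2277 against 193 and 184, and the pair was left at 9.55%. In the controls 88.3% of the normalized counts of both copies, not corrected for length, fell on capn8.1.L. Also below both controls, and called by neither edgeR nor DESeq2, were xpo4.L, plekhg5.L and mesp2.L. xpo4.L had 280 and 465 against 258 and 65.3, and plekhg5.L had 142 and 236 against 40.6 and 44.7. mesp2.L had 31.2 and 11.1 against 0 and 0.

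Of the 9 partners that overlapped the controls or lay above them, 3 are given here with their pairs, each of which includes the copy chosen for its fall. They are the pairs with the most left. Of all 20 pairs, 15 were left at under 20% of their control mean and 2 at over 50%. amotl1.S had 186 and 396 in the controls versus 144 and 510 in sox8 CRISPR, with overlapping groups, and the summed amotl1 pair was left at 54.4%. spns2.L had 45.3 and 33.4 in the controls versus 80.0 and 227 in sox8 CRISPR, the 1 partner above both controls, and the pair was left at 58.2%. thop1.S had 342 and 297 against 442 and 39.9, so its 2 sox8 CRISPR libraries lay on either side of the controls and the pair was left at 45.9%. Partners with little signal say little on their own, and 10 of the 20 partners had under 100 normalized counts in a control. Among these, eps8l3.L had 10.9 and 28.6 in the controls versus 58.7 and 25.4 in sox8 CRISPR. dlx3.L had 1.56 and 2.38 against 13.1 and 0, and myo10.2.L had 10.9 and 64.4 against 26.2 and 0, all with overlapping groups.

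**Figure D3:**
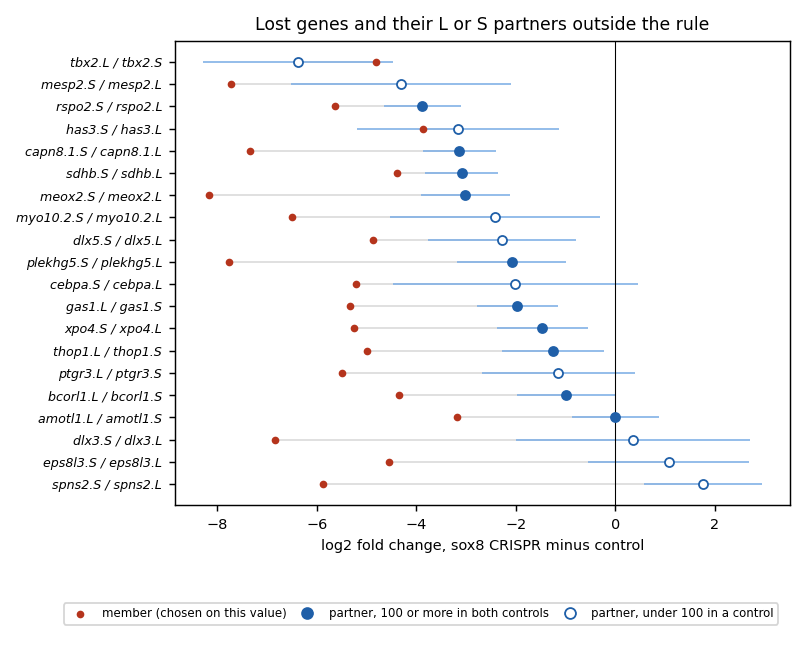
Log2 fold change (sox8 CRISPR minus control, limma on log2(normalized count + 1), n = 2 per group) of 20 lost genes (red) and of their homeolog partners (blue, with SE bars), ordered by the partner; open circles are partners under 100 in a control. The partners spread from −6.38 to 1.77 with a median of −2.04.

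Relatives of the lost genes within their families were compared next, in lists written after values of these data had been seen. The counts of genes below or above both controls stand beside 19.1% and 17% of all genes. Those at an unadjusted limma p under 0.05 stand beside 815 lower and 648 higher among all 21531 genes. edgeR and DESeq2 called 0.237% and 0.869% of all genes lower. For succinate dehydrogenase, the other 9 genes of subunits and assembly factors held 1 gene below both controls, sdhb.L, and limma called 0 of the 9 (1 lower and 0 higher at an unadjusted p under 0.05, 0 by edgeR, 1 by DESeq2). sdha.L, the catalytic subunit gene, had 420 and 578 in the controls versus 813 and 696 in sox8 CRISPR. sdhc.S, a membrane anchor gene, had 1847 and 644 against 481 and 944, with overlapping groups.

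In the Mesp family 4 of the 5 other genes were below both controls (19.1% of all genes), and limma called 0 (3 lower at an unadjusted p under 0.05, 0 by edgeR, 2 by DESeq2). mespb.S had 5577 and 5704 in the controls versus 525 and 874 in sox8 CRISPR, and its copy mespb.L had 8878 and 4769 against 874 and 3484. mespa.S had 45.3 and 89.0 against 1.25 and 0. mesp2.S at chr3S:45479574-45482147 has mespa.S and mespb.S as its nearest neighbours among the measured genes with coordinates. Their starts are 16456 and 20878 bases away, and all 3 genes lay below both controls.

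The Tbx2 subfamily was measured at low counts. Of the 4 genes besides tbx2.L, 3 were below both controls (19.1% of all genes) and limma called 0 (3 lower at an unadjusted p under 0.05, 0 by edgeR, 3 by DESeq2). tbx2.S had 59.3 and 259 in the controls versus 2 reads in all in sox8 CRISPR, a ratio of 255 with an interval from 70.6 to 2105. tbx3.L had 75.0 and 301 against 4.997 and 0, and tbx3.S had 45.3 and 184 against 0 and 0. Among 5 other Dlx genes 3 were below both controls, dlx2.S with 81.2 and 264 against 10.6 and 0, dlx5.L with 64.0 and 101 against 8.74 and 27.8, and dlx6.S with 87.4 and 28.6 against 4.37 and 0. limma called 0 of those 5 (2 lower at an unadjusted p under 0.05, 0 by edgeR, 1 by DESeq2).

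Other families were mixed, beside 19.1% of all genes below both controls and 17% above. Besides the rspo2 copies, rspo3.L had 837 and 435 in the controls versus 86.2 and 15.7 in sox8 CRISPR (adjusted p = 0.140 by limma), whereas the R-spondin receptor gene lgr4.L had 32.8 and 28.6 against 98.1 and 37.5. The ubiquitin ligase gene znrf3.L, with 147 and 116 against 78.1 and 20.5, and its copy znrf3.S, with 18.7 and 82.7 against 11.9 and 15.7, were also below both controls, and with rspo2.L and rspo3.L they were 4 of the 9 genes of that list besides rspo2.S. The hyaluronan synthase genes has2.L, with 93.7 and 101 against 467 and 197, and has2.S, with 32.8 and 115 against 170 and 109, were not below both controls, while has-rs.S, with 5563 and 16812 against 4382 and 2305, and has3.L, with 23.4 and 61.2 against 18.1 and 0, were, which made 2 of the 5 other synthase genes. The S1P receptor genes s1pr5.L, with 0 and 8.74 against 672 and 108, and s1pr5.S, with 6.25 and 2.38 against 251 and 231, lay above both controls, called by DESeq2 and not by limma (adjusted p = 0.174 for each). In the same list of S1P genes s1pr1.S, with 71.8 and 26.2 against 15.6 and 13.3, and sphk2.L, with 20.3 and 69.95 against 8.12 and 0, lay below both. The Eps8 relatives of eps8l3.S held no gene below both controls, and eps8.L had 155 and 103 against 213 and 138.

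**Figure D4:**
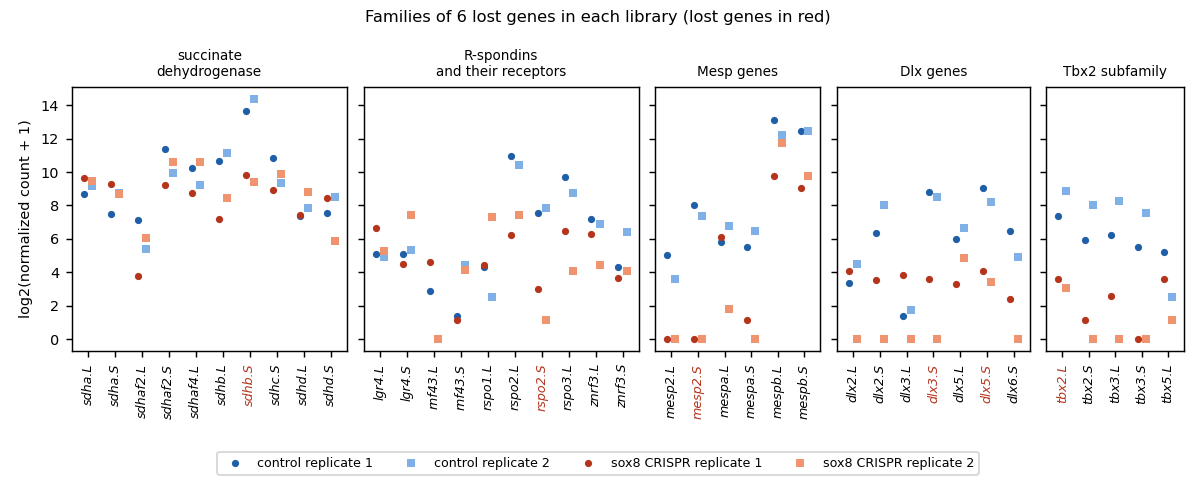
Normalized counts in the 4 libraries, as log2(normalized count + 1), of the genes of 5 families, with lost genes labelled in red; colours and marks are those of the plot of the 35 genes. sdhb.S and sdhb.L are low while sdha.L is not, and the Mesp and Tbx2 genes mostly have sox8 CRISPR marks under the control marks.

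Gene lists of the tissues and pathways place the 35 genes, 7 of which appear in one. In the list of BMP targets and feedback genes, limma called 15 of 67 lower and 0 higher (1 higher at an unadjusted p under 0.05, 0 by edgeR and by DESeq2), with a median log2 fold change of −2.36, and 4 of the 35 (smad7.L, smad7.S, dlx3.S and dlx5.S) belong to it. Without those 4 the median was −2.28. The list still holds bambi, szl, ventx, msx, gata and id genes, families that were set aside by name. Of the 41 genes called lower over all genes, 38 met the rule before symbols were set aside. The calls in these lists are therefore not independent of the rule. Dlx and tbx2 genes also stand in the list of epidermis and non-neural ectoderm, where limma called 0 of 58, the median was 0.48, and among the 55 genes outside the group 6 were lower and 6 higher at an unadjusted p under 0.05, with 0 called by edgeR and 5 lower and 3 higher by DESeq2. Its summed level was 59461 and 39566 normalized counts in the controls versus 106835 and 105700 in sox8 CRISPR. Much of that sum fell on cldn6 genes, such as cldn6.1.L with 12654 and 5622 in the controls versus 10672 and 30535 in sox8 CRISPR. Of the 58 genes, 14 lay below both controls and 15 above, against 19.1% and 17% of all genes. At an unadjusted limma p under 0.05, 815 of all 21531 genes were lower and 648 higher.

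Markers of the labelled tissue were present. The counts below or above both controls given here stand beside 19.1% and 17% of all genes. Those at an unadjusted limma p under 0.05 stand beside 815 lower and 648 higher among all 21531 genes. Of 38 ventral and pan-mesodermal marker genes 12 were called lower and 0 higher by limma (2 higher at an unadjusted p under 0.05, 0 by edgeR and by DESeq2), with 27 below both controls, 7 above and a median log2 fold change of −2.89. All of the 12 but evx1.L also stand in the list of BMP targets and feedback genes, so the counts called in these lists overlap. The summed level of the 38 genes was 164602 and 196972 in the controls versus 130525 and 141339 in sox8 CRISPR. That sum mixes unlike genes and does not measure the ventral markers alone. vegt.L had 12189 and 28858 in the controls versus 44355.5 and 53056 in sox8 CRISPR, whereas szl.S had 8152 and 3693 against 8.12 and 1.21. In the list of muscle and presomitic mesoderm, meox2.S was the 1 gene called by limma of 28, and the summed level was 76369 and 76420 in the controls versus 44338 and 73994 in sox8 CRISPR. The median log2 fold change of that list was −1.09, with 9 genes below both controls and 4 above. Above were myf5.L, with 1257 and 3092 against 5003 and 13346, myf5.S, myod1.L and ripply2.1.S. Among the 27 besides meox2.S, 7 were lower and 4 higher at an unadjusted p under 0.05 (0 by edgeR, 4 lower and 3 higher by DESeq2). Organizer and axial mesoderm genes went the other way, with 9 of 31 called higher by limma and 0 lower (0 lower at an unadjusted p under 0.05, and 0 by edgeR and DESeq2). In that list 18 genes lay above both controls and 1 below. The summed levels were 8117 and 23889 in the controls versus 106498 and 25086 in sox8 CRISPR, so sox8 CRISPR replicate 2 was close to control replicate 2. Much of the control sums fell on pcdh8.2.L, also in the presomitic list, with 2600 and 13720 in the controls versus 7278 and 6718. chrd.1.S had 0 and 0.795 in the controls versus 16794 and 899 in sox8 CRISPR. The part of a shift in tissue makeup in the low values of the 35 genes was not tested. In the list of actin and migration regulators limma called 0 of 50, and among the 49 genes besides capn8.1.S 2 were lower and 5 higher at an unadjusted p under 0.05 (1 higher by edgeR, 1 lower and 3 higher by DESeq2); the median of the list was 0.47.

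On the chromosomes, 31 of the 35 genes had coordinates in the v10.1 annotation, on 16 chromosomes. Short copies made up 20 of the 35 (57.1%, against 42.7% of the genes that reached 100 in both controls and carry a copy suffix), counting by suffix myo10.2.S, which the annotation places on chromosome 9_10L. Neighbours were sought only among measured genes with coordinates, so unmeasured genes may lie between. Among 62 nearest neighbours, 21 were below both controls in sox8 CRISPR (33.9%, against 19.1% of all genes), with a median log2 fold change of −0.38. The 1 neighbour called by limma was LOC108696924 beside rdd4.L, with 12061 and 7540 in the controls versus 262 and 195 in sox8 CRISPR (adjusted p = 0.00104). LOC121395662, the second gene on the other side of rdd4.L, had 500 and 578 against 46.8 and 41.1 and met the same rule, so 3 genes of that stretch of chromosome 7L were low, counting rdd4.L. LOC121395664, between rdd4.L and LOC121395662, had 0 and 32.6 against 0 and 1.21 and overlapped the controls. LOC108696925, the second gene on the side of LOC108696924, also overlapped, with 18.7 and 655 against 2.50 and 43.5. The neighbours of sdhb.S, meox2.S and crybg2.L were not called by limma. Of them, szrd1.S beside sdhb.S had 161 and 165 against 149 and 122, and lin28a.L beside crybg2.L had 4062 and 7442 against 2392 and 2330. Of the 62 nearest neighbours, 7 were lower and 0 higher at an unadjusted limma p under 0.05, beside 815 and 648 of all 21531 genes. edgeR called 1 of the 62 lower and DESeq2 3 (0.237% and 0.869% of all genes), and neither called one higher.

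The membership of the group depended on the scaling. With reads per library total in place of size factors, 15 of the 35 remained among 17 genes, 17 of the 20 others missing the ratio and 7 the floor, while TMM scaling kept 34. Over all genes the median was −0.11 with TMM and 0.08 with reads per total, and the smallest drop among the 35 under the 3 scalings was −2.95, with a sign that the rule fixes. As a mirror, 76 genes with symbols outside the same families met the rule with the groups exchanged. Before symbols were set aside, 95 of the 8764 genes with 100 or more in both sox8 CRISPR libraries met it (1.08%). The like count for lost genes was 75 of 9062 (0.828%), so setting symbols aside removed more lost than gained genes.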

How the data were processed

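Single-end reads of the 4 libraries were processed by the authors: adapters and low-quality bases were trimmed with cutadapt 4.4, ribosomal RNA reads were removed, and the rest was aligned to the X. laevis v10.1 assembly with HISAT2 2.2.1 and counted per gene with featureCounts 2.0.6. Strand use and the treatment of reads matching several genes are not stated there. As deposited, each value is a normalized signal of 0 or more, the reads of a gene over 1 DESeq2 size factor per library, for genes with a mean of 5 or more. Dividing by the value of 1 read gave whole reads for 100% of values (tolerance 0.01). The table had 0 other columns with values. Reads carry no molecular identifiers, so intervals and floors cover counting error only, and the 2 libraries per group limit the precision.

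limma 3.58.1 in R 4.3.3 was fitted to log2(normalized count + 1) with an intensity trend, two-sided, with Benjamini-Hochberg adjustment over all 21531 genes. edgeR 4.0.16 (quasi-likelihood) and DESeq2 1.42.0 on the recovered reads, other pseudocounts, filters, scalings, thresholds of the rule, a replicate block and leaving out each library were alternatives. The limma, edgeR and DESeq2 fits were also run on simulated counts, which did not cover the rule, the partner medians or the fits with a library left out.

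The 35 genes and the gene lists were chosen with earlier results of these data known, and roles and family lists were written after values were seen. Named with values were the 15 genes with the highest control mean, the 15 with the largest ratio of lower control to higher sox8 CRISPR value, those in a tissue or pathway list, the 5 nearest the threshold on each side, the 2 highest of each role, and partners of the first 2 sets and of smad7. Other relatives, partners and neighbours were chosen after their values were seen. Coordinates come from the RefSeq annotation of v10.1, which matched 92.0% of symbols. Promoter, transcript and protein sequences were not analysed here.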

Additional observations from a re-analysis of the deposited data

How the results depend on the processing

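The number of lost genes was 35 with the rule as given and 52 with a floor of 50. It was 18 with a floor of 200, 81 with a ratio of 1/4, 16 with 1/16, 17 with reads per library total and 75 with no symbol left out, and it ranged from 57 to 359 when 1 library was left out. Over all genes, 41 were called lower by limma, 71 with a pseudocount of 5, 187 by DESeq2 and 0 without the intensity trend (795 lower at an unadjusted p under 0.05). Of the 35 genes, 12 were called, 7 with a pseudocount of 0.5, 33 by DESeq2 and 0 without the trend (35 at an unadjusted p under 0.05). With 1 library left out both counts were 0 in each case, with 298 to 3006 genes and 15 to 34 of the 35 lower at an unadjusted p under 0.05. The cause of these differences was not tested. The median log2 fold change of the partners ranged from −2.70 to −1.14 when 1 library was left out, and kept its direction in all settings tried.

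With the replicate block, 44 genes and 10 of the 35 were called lower, against 41 and 12 without it. The replicate numbers only name the samples, and same-numbered libraries deviated with a correlation of −0.22 across genes. With the numbers crossed, a setting chosen after seeing the data, 460 genes and 30 of the 35 were called.

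The log2 fold changes of the 35 genes ranged from −11.63 to −3.07 over the alternative fits and reached −2.95 with reads per library total, with a sign that the rule fixes. Leaving out 1 library turned the direction of 5 partners: amotl1.S (0.00 with all libraries) ranged from −0.91 (without sox8 CRISPR replicate 2) to 0.91, with −0.54 without control replicate 1. cebpa.L ranged from −4.77 to 0.76 (without control replicate 2), dlx3.L from −1.56 (without sox8 CRISPR replicate 1) to 2.26, thop1.S from −2.97 to 0.47 and ptgr3.S from −2.88 to 0.59 (both highest without sox8 CRISPR replicate 2). For sox8.S the value was −1.16 with limma, −4.70 to 2.38 with 1 library left out, 1.29 with edgeR and 1.21 with DESeq2. Genes with few reads in sox8 CRISPR have fold changes that depend on the pseudocount.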
